A study of Rattus norvegicus with 2 samples.

Results

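The genes described here encode the actin cytoskeleton of the cell, meaning actins, myosins, tropomyosins, the proteins that bind, cap, cross-link or anchor actin filaments, a few of their regulators, and vimentin. They were chosen by name, with earlier results of these data known. A total of 47 genes were listed, and the probes whose RefSeq transcript accession belongs to any of them were taken. Of the 47 genes, 44 had such a probe, out of 13661 genes that could be named on the array. Acta2, Myl6 and Cnn2 had none that could be named here. Of the 44, 42 were well above background on both arrays and are called measured, Cnn1 was so on the senecionine array only, and the spot of Tmsb4x carried an outlier flag.

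Liver RNA of Sprague Dawley rats was hybridised to 2 one-colour Agilent arrays. The control array carries RNA of rats dosed with sodium chloride, and the other array that of rats given 35 mg/kg of senecionine, a liver-toxic plant alkaloid, into the stomach. Both sets of livers were collected at 36 h, and tissue of 3 animals was pooled for each array, so there is 1 array per group and no replicate. The design text mentions independent experiments, which was read here as meaning these arrays. No test between groups was possible. Every difference is one between these pools. A log2 ratio is followed by the error that Agilent's software gave its spots, which leaves out the spread between rats. The labels used here give no sex or age.

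Actin monomers assemble into filaments that myosin motors pull on and tropomyosins stabilise, and adhesion proteins tie the filaments to integrins in the membrane. Serum response factor, SRF, is a transcription factor that binds a sequence called the CArG box in the control regions of many of these genes. Its partners of the MRTF family are held by free actin monomers and are released to the nucleus when filaments form. In liver, smooth-muscle-type actin and its partners are best known from vessel walls and from activated stellate cells, while the other forms are made by most cells.

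Signals are given relative to the array, as the processed intensity of a probe divided by the 75th percentile over the non-control spots of its own array. They may be set against each other between the arrays for 1 probe, but not between probes. A gene was counted as higher or lower at a fold of at least 2 (log2 ratio, senecionine minus control, of 1 or more in size). The arrays differed in detection: of the non-control spots, 44.4% were well above background for control RNA and 64.1% for senecionine RNA. Of the 13661 named genes, 2612 were above background with senecionine RNA alone and 168 with control RNA alone, so counts of genes seen on 1 array only are to be read against that. Liver identity was checked with 8 hepatocyte markers, of which 5 had a named, unflagged probe and all 5 were well above background on both.

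Most of these genes had more signal after senecionine. Of the 42 measured, 23 were at least 2-fold higher (54.8%), 1 was at least 2-fold lower and 18 lay within 2-fold. The same thresholds were passed by 11.2% of all 7798 measured genes on the higher side and by 17.7% on the lower side. The median log2 ratio was 1.20 over the cytoskeletal genes and -0.14 over all measured genes. Because the list was chosen with earlier results known, these shares and medians are a description only. Of the 42, 36 had a ratio above 0, against 43.8% of all measured genes, and 8 were at least 4-fold higher and Pdlim7 at least 4-fold lower, shares that over all measured genes were 2.73% and 4.62%. With median scaling Tagln2 (log2 ratio 1.97) and Itgb1 (1.96) lay inside 4-fold. In bulk tissue, more cells of a type and more RNA per cell cannot be told apart.

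**Figure D1:**
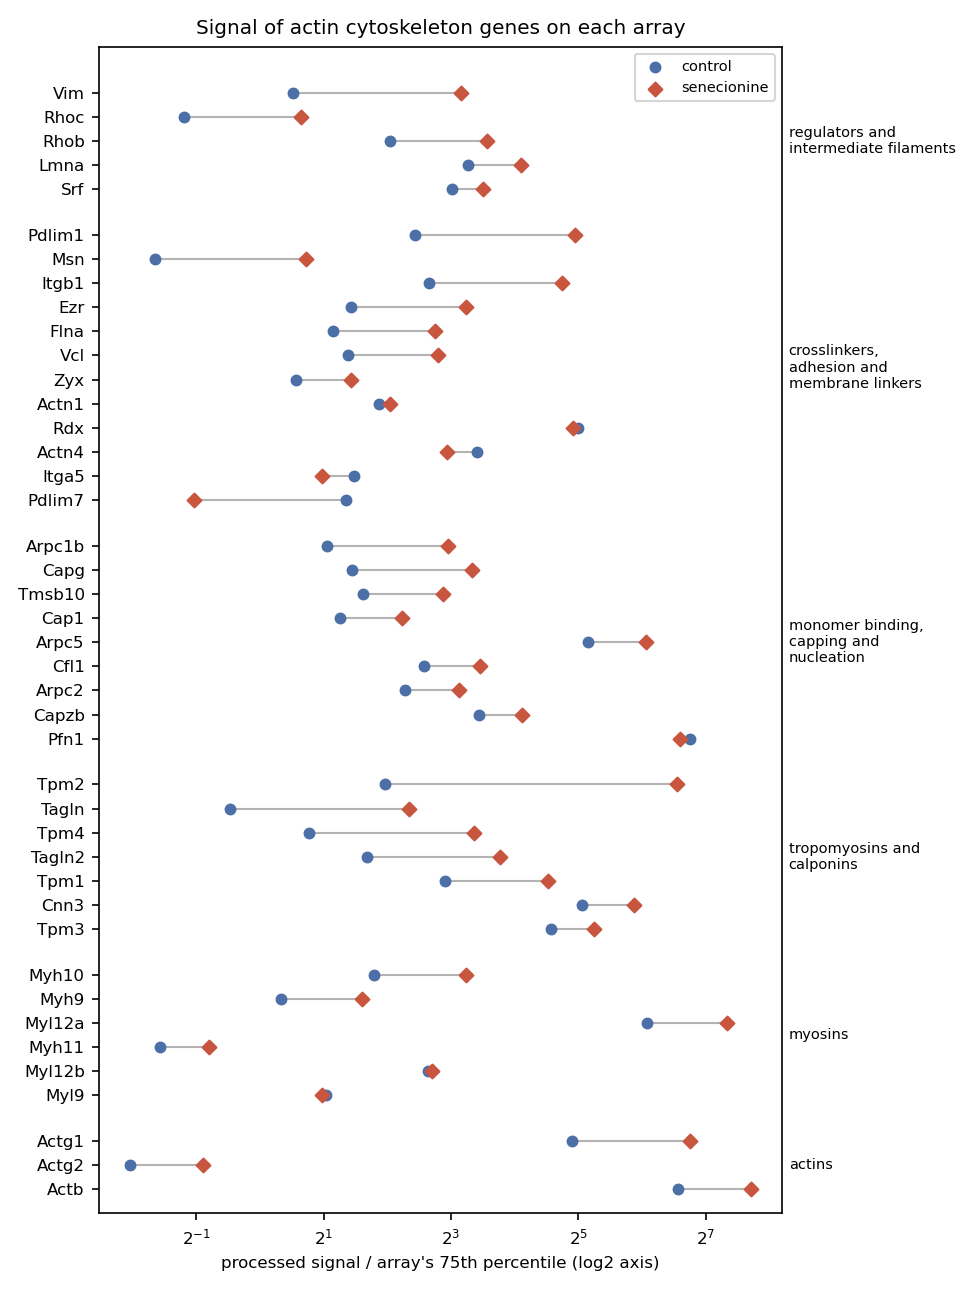
Relative signal (processed signal over the 75th percentile of its array, log2 axis) of each of the 42 measured genes, grouped by role, on the control array (circles) and the senecionine array (diamonds), with a grey line joining the values of 1 gene. Each point is 1 array, so there are no error bars, and signals of different genes are not comparable. The diamond lies to the right of the circle for 36 genes, farthest for Tpm2.

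**Figure D2:**
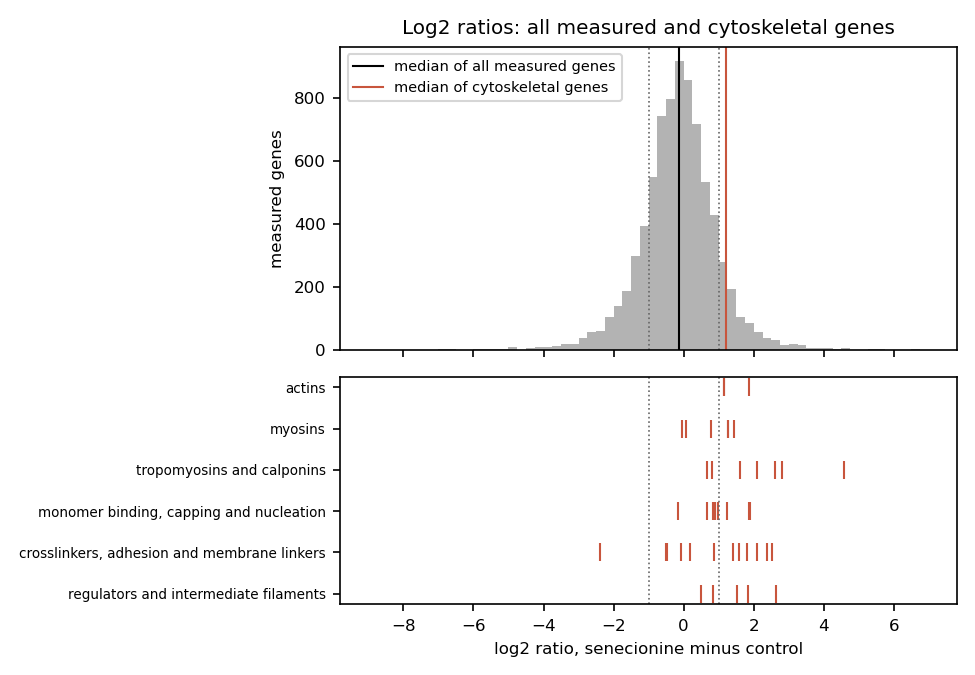
Top: number of measured genes (n = 7798) by log2 ratio, senecionine minus control, in bins of 0.25, with lines at the median of all measured genes (-0.14) and of the cytoskeletal genes (1.20). Bottom: each cytoskeletal gene as a tick, by role, with dotted lines at 2-fold. The ticks lie mostly to the right of the centre of the upper distribution, and Pdlim7 is the 1 tick beyond 2-fold on the left.

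The regulatory sequence next to these genes was searched for the CArG box, because SRF is in the list. The RefSeq promoter table (build GRCr8) covers 250 bases before and 50 after a start site and holds 40 of the 47 genes. Actb, Actn4, Cap1, Capg, Myh11, Myl9 and Tagln are not in it. The consensus of the CArG box reads the same on both strands. A perfect box was present in 3 of the 40 (7.5%), namely Srf, Actg1 and Cnn2. It was present in 1.77% of the 27457 genes in the table and 1.64% of its 33469 promoter windows. The stretches before the start site are shown for Srf and Actg1, which were measured, with only the perfect boxes in capitals. A match 1 letter off that begins 38 bases before the Srf start site is left in lower case. Itgb1, which was at least 4-fold higher, is shown as well, and its capitals mark a match that is 1 letter off. It was picked by name and has the highest ratio of the measured genes with only such a match.
Srf: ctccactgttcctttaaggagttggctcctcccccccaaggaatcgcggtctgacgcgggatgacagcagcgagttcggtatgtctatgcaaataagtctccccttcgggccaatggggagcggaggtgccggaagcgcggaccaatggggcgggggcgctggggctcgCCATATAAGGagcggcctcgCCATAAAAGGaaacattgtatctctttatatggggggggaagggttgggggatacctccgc
Actg1: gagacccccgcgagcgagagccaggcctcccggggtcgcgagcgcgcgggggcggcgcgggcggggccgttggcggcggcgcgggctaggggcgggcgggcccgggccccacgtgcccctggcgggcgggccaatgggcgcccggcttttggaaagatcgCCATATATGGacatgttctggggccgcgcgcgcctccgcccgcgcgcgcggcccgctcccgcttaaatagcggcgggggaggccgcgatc
Itgb1: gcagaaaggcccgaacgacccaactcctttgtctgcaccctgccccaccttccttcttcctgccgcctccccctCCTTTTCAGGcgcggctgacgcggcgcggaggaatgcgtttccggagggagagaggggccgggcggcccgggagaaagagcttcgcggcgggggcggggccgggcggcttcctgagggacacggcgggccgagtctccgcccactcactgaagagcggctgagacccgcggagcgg
The Srf stretch is chr9:21923826-21924075 on the plus strand, that of Actg1 chr10:106120952-106121201 on the minus strand and that of Itgb1 chr19:73602027-73602276 on the plus strand. The Srf boxes begin 81 and 61 bases before the start site, that of Actg1 90 bases, and that of Cnn2, which has no probe here, 71 bases before it. With 1 letter allowed to differ, 11 of the 40 genes had a match (27.5%), as did 22.5% of all genes, and the further 8 were Acta2, Capzb, Flna, Itga5, Itgb1, Tpm1, Tpm3 and Zyx. Their changes in signal were mixed: Itgb1, Tpm1 and Flna were at least 2-fold higher, and Capzb, Itga5, Tpm3 and Zyx lay within 2-fold.

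Other short motifs were counted in the same windows on both strands. The GC-rich motif GGGCGG was present in 36 of the 40 genes (90.0%) and in 36.0% of all genes. TATAAA was present in 3 of the 40 (7.5%) and in 15.3% of all genes, TGANTCA, the AP-1 motif, in 3 (7.5%) and 8.04%, and GGAATG, the TEAD motif, in 11 (27.5%) and 15.0%. TATAAA can lie inside a CArG box, so those counts are not independent. These counts describe letters in a short window and were not related to the signals.

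Actin genes were higher wherever they could be read. Actg1, the cytoplasmic gamma actin whose promoter is shown above, had a relative signal of 29.8 with control RNA and 108 with senecionine RNA, a 3.62-fold difference (log2 ratio 1.86 ± 0.20, spot error). Actb, the cytoplasmic beta actin often used as a reference gene, went from 94.4 to 209, or 2.21-fold higher (1.15 ± 0.20). A second Actb probe was printed repeatedly. On its 6 unflagged control spots it ranged from 66.8 to 78.2 (median 70.2), and on its 9 unflagged senecionine spots from 126 to 161 (median 136). The spots of the arrays did not overlap, but they are repeat spots of the same pools and leave out the spread between rats. The mean ratio of this probe was 0.94 ± 0.08, just inside 2-fold. Actg2, the smooth muscle gamma actin, was dim, at 0.244 and 0.540, and was 2.21-fold higher with a wider error (1.15 ± 0.32). With normexp background correction its log2 ratio was 0.39, inside 2-fold. Actin genes are near-identical in their coding sequence, and how far their probes cross-hybridise was not tested.

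Of the 6 measured myosin genes, 3 were at least 2-fold higher and 3 lay within 2-fold. Myh9, the heavy chain of non-muscle myosin IIA, was 2.41-fold higher, at 1.26 and 3.04 (log2 ratio 1.27 ± 0.21). Myl12a, a regulatory light chain of non-muscle myosin, was 2.39-fold higher, at 67.2 and 161 (1.26 ± 0.20), and its other probe gave 1.02 ± 0.20. Its close paralog Myl12b lay at 6.21 and 6.53 (0.07 ± 0.20), within its spot error. For such similar genes cross-hybridisation leaves single values uncertain. Myl9, the regulatory light chain known from smooth muscle, did not move beyond its error either, at 2.05 and 1.97 (-0.06 ± 0.21).

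Myh10, the heavy chain of non-muscle myosin IIB, has no single reading. Its brightest probe was 2.71-fold higher, at 3.47 and 9.40 (log2 ratio 1.44 ± 0.21). A dimmer probe, also above background on both arrays, went the other way, from 0.261 to 0.0983 (-1.41 ± 0.43). The count of 23 includes Myh10 through the brightest probe, and it is not counted as higher with the median of its probes. Myh11, the smooth muscle heavy chain, was dim and lay within 2-fold, at 0.338 and 0.577 (0.77 ± 0.27), with a second probe above background on the senecionine array only.

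Tropomyosins, which lie along the actin filament and govern access of myosin, held the largest ratio of the 42 genes, that of Tpm2. Tpm2, the beta tropomyosin, had a relative signal of 3.89 with control RNA and 93.3 with senecionine RNA, 24.0-fold higher (log2 ratio 4.59 ± 0.20). Its other probes passed background with senecionine RNA alone, with relative signals of 1.08 and 0.939 there against 0.237 and 0.0715 on the control array. Having passed background only through the array where they are high, these probes do not bear on the direction.

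Tpm4, a cytoplasmic tropomyosin, went from 1.71 to 10.3, or 6.03-fold higher (log2 ratio 2.59 ± 0.21). Tpm1, the alpha tropomyosin, was 3.06-fold higher on its brightest probe, at 7.51 and 23.0 (1.61 ± 0.20). Its probes are drawn from 2 RefSeq transcripts of the gene. The 1 probe of the first transcript gave 1.61, and the probes of the second that were above background on both arrays gave 1.57 ± 0.21 and 2.76 ± 0.23, so all 3 were at least 2-fold higher. Tpm3 was the tropomyosin with the smallest difference, at 23.7 and 37.7 (0.67 ± 0.20). Another probe of the same Tpm3 transcript gave 0.69 ± 0.20, but one more of it gave 1.52 ± 0.21, past 2-fold. The probes of a second Tpm3 transcript were dim, above background on the senecionine array alone, and lay on both sides of 0.

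Transgelins and calponins are small actin-binding proteins, of which transgelin and calponin 1 are markers of contractile smooth muscle. Tagln, transgelin, went from 0.725 to 5.04, or 6.94-fold higher (log2 ratio 2.80 ± 0.22), though normexp correction gave 2.20. Tagln2, its widely expressed relative, went from 3.20 to 13.7, or 4.27-fold higher (2.09 ± 0.21). Cnn3, the non-muscle calponin, lay at 33.4 and 58.5 (0.81 ± 0.20), inside 2-fold, but was past it with quantile normalization, cyclic loess and normexp correction. Cnn1, calponin 1, passed background with senecionine RNA alone, at 0.125, below the lowest relative signal called well above background on the control array (0.204), so no bound on its fold can be given.

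**Figure D3:**
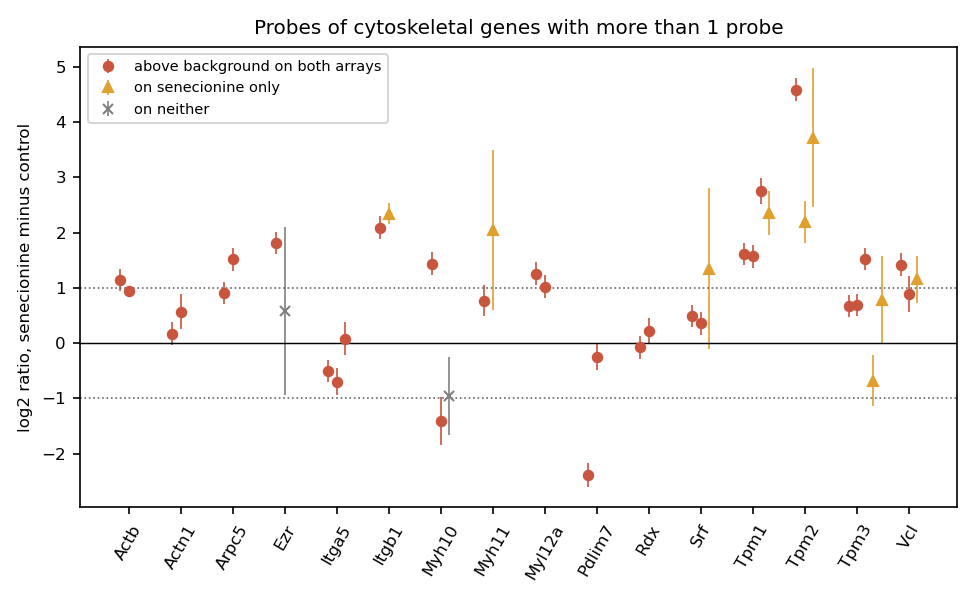
Log2 ratio (senecionine minus control, vertical axis) of every unflagged probe of the genes with more than 1 probe, with Agilent's spot error as bars. Circles mark probes well above background on both arrays, triangles on the senecionine array only and crosses on neither. The probes of Myh10 lie on opposite sides of 0 and those of Pdlim7 are far apart, while those of Actb, Myl12a, Tpm1 and Vcl lie on the same side.

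Of the 9 measured genes for proteins that hold monomers, cap filament ends or start branches, 3 passed 2-fold upwards and none downwards. Arpc1b, a subunit of the Arp2/3 complex that starts filament branches, went from 2.08 to 7.75, or 3.73-fold higher (log2 ratio 1.90 ± 0.21). Capg, a capping protein abundant in macrophages, went from 2.73 to 10.03, or 3.68-fold higher (1.88 ± 0.21). Tmsb10, a thymosin that sequesters actin monomers, went from 3.08 to 7.33, or 2.38-fold higher (1.25 ± 0.21). For all 3 the difference was several times the spot error, which leaves out the spread between rats.

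The other Arp2/3 subunits in the list lay inside 2-fold on their brightest probes. Arpc5 had a log2 ratio of 0.91 ± 0.20 on its brightest probe, at 35.4 and 66.5, and 1.51 ± 0.21 on the other, and the brightest was past 2-fold with quantile normalization, cyclic loess and normexp correction (1.16, 1.18 and 1.16). Arpc2 had one of 0.85 ± 0.20, at 4.83 and 8.70. Genes for filament turnover sat at the same place. Cap1, which recycles monomers, was closest to the threshold, at 2.38 and 4.69 (0.98 ± 0.21), the severing protein gene Cfl1 lay at 5.93 and 10.9 (0.88 ± 0.20), and Capzb, a capping subunit, at 10.9 and 17.4 (0.68 ± 0.20). Cyclic loess put Cap1 (1.06) and Cfl1 (1.01) past 2-fold. Scaling over probes above background on both arrays did so for Cap1 (1.06), and Capzb stayed inside with both. Pfn1, profilin 1, was the exception in this group, at 108 and 96.4 (-0.17 ± 0.20), within its error, and its sign turned to positive with quantile normalization, cyclic loess and normexp correction. Tmsb4x, the main thymosin of most cells, had its spot flagged as an outlier on the senecionine array. Read despite the flag, it lay at 101 and 199 (0.99 ± 0.20), just inside 2-fold.

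Of the 12 measured adhesion, cross-linking and membrane linker genes, 6 passed 2-fold upwards and 1 downwards, and the ratios ran from -2.38 to 2.52. Pdlim1, an adaptor that binds alpha-actinin on stress fibres, was the highest, from 5.41 to 31.0, or 5.73-fold (log2 ratio 2.52 ± 0.20). Pdlim7, another adaptor of the same PDZ and LIM domain family, was the lowest, from 2.54 to 0.487, or 5.21-fold lower (-2.38 ± 0.21). The other Pdlim7 probe gave only -0.25 ± 0.23, so the lower value rests on 1 probe, for which normexp correction gave -1.48. These adaptors therefore differed in direction on their brightest probes.

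Moesin, ezrin and radixin link actin filaments to the membrane and are close relatives. Msn went from 0.318 to 1.65, or 5.18-fold higher (log2 ratio 2.37 ± 0.28), though normexp correction gave 1.24. Ezr, known from epithelia, went from 2.68 to 9.41, or 3.51-fold higher (1.81 ± 0.21). Rdx, the form known as the main one of hepatocytes, lay at 31.9 and 30.2 (-0.08 ± 0.20), within its spot error. Its second probe gave 0.22 ± 0.24, also within its error.

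Itgb1, the common beta chain of matrix-binding integrins, went from 6.30 to 26.8, or 4.25-fold higher (log2 ratio 2.09 ± 0.20). A second Itgb1 probe was printed 10 times on each array. It ranged from 0.0446 to 0.271 on the control array (median 0.196), where 1 of the 10 spots was well above background, and from 0.778 to 0.986 on the senecionine array (median 0.893), where all 10 were. These are repeat spots of the same pools, and the probe passed background only through the array where it is high. Itga5, the alpha chain that pairs with it to bind fibronectin, did not share this, at 2.78 and 1.96 (-0.51 ± 0.21), with -0.70 and 0.08 on its other probes.

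Flna, filamin A, which cross-links filaments into networks, went from 2.22 to 6.69, or 3.01-fold higher (log2 ratio 1.59 ± 0.21). Vcl, vinculin, which ties filaments to adhesions, went from 2.60 to 6.93, or 2.67-fold higher (1.42 ± 0.21), and its second probe gave 0.88 ± 0.32. Zyx, zyxin, a focal adhesion protein, lay inside 2-fold at 1.47 and 2.70 (0.87 ± 0.22). The alpha-actinins, which bundle filaments, lay within 2-fold. Actn1 lay at 3.65 and 4.11 (0.17 ± 0.20), with 0.57 ± 0.31 on its second probe, and Actn4 at 10.6 and 7.66 (-0.46 ± 0.20).

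Among the regulators, the small GTPase genes Rhoc and Rhob were past 2-fold and SRF itself was not. Rhoc went from 0.439 to 1.56, or 3.56-fold higher (log2 ratio 1.83 ± 0.26), and Rhob, an early response gene, from 4.12 to 11.8, or 2.86-fold higher (1.51 ± 0.21). Srf, whose promoter carries the pair of CArG boxes shown above, lay at 8.05 and 11.3 (0.49 ± 0.20), and its second probe gave 0.36 ± 0.21. Vim, the intermediate filament protein of mesenchymal cells and leukocytes, went from 1.43 to 8.89, or 6.20-fold higher (2.63 ± 0.21). Lmna, of the nuclear lamina, lay inside 2-fold at 9.65 and 17.1 (0.83 ± 0.20).

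The genes taken here as known from contractile smooth muscle, which leave out the tropomyosins, had unlike values. Tagln was past 4-fold and Actg2 just past 2-fold, while Myh11 and Myl9 lay within 2-fold, Cnn1 could be read on 1 array only and Acta2 had no named probe.

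**Figure D4:**
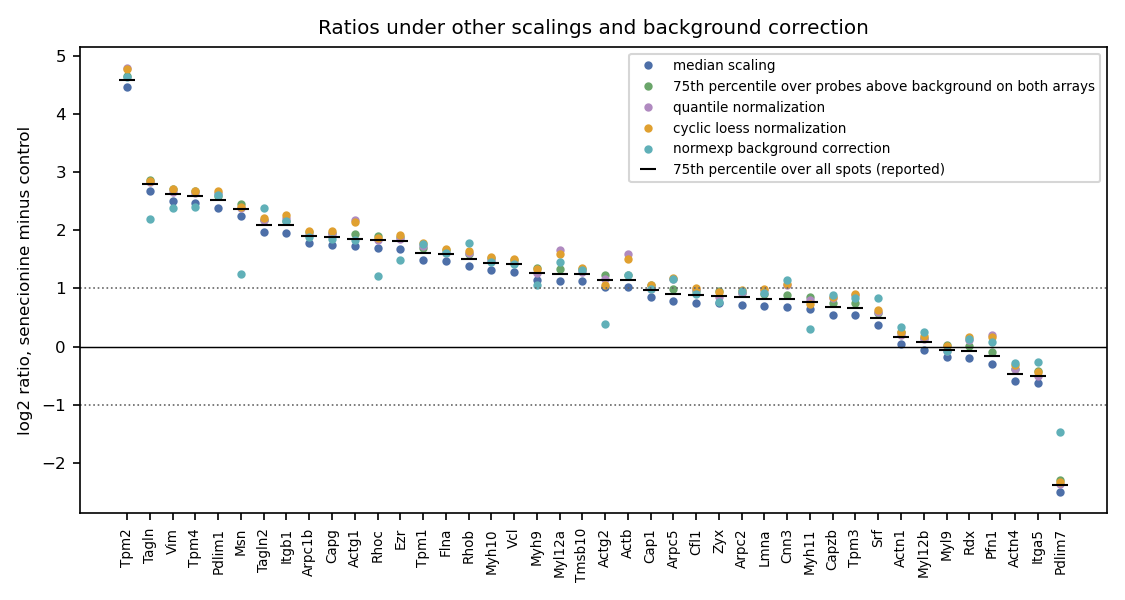
Log2 ratio (senecionine minus control, vertical axis) of the 42 measured genes, sorted by the reported value (black dash), with coloured points for 4 other scalings and for normexp background correction. Dotted lines mark 2-fold. The points of most genes lie close together, and those of dim genes such as Msn, Actg2 and Rhoc drop with normexp correction.

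Genes of the same pathways that are not on the list were read in lists chosen with earlier results of these data known. Among other SRF targets, 7 of the 17 measured passed 2-fold upwards and none downwards (median log2 ratio 0.97), or 5 with median scaling, and 6 more were seen with senecionine RNA alone. Tes, a focal adhesion protein, was 17.7-fold higher (4.15 ± 0.34), Ccn2 10.3-fold, the AP-1 subunit Junb 5.34-fold and Ccn1 4.24-fold. Fhl2, a LIM protein that binds SRF, was seen with senecionine RNA alone (bound 3.20-fold). A gene seen on 1 array only passed background through the array where it is high. Such bounds, here and below, therefore do not bear on the direction. Of the SRF partner genes, 6 of 9 had a named probe, and Mrtfa, Mrtfb and Scai had none. Elk3 was 2.01-fold higher but not past 2-fold with median scaling, cyclic loess or normexp correction, and Elk4 had a ratio of -0.02 ± 0.21. Targets of YAP, another regulator that responds to actin tension, passed 2-fold upwards in 3 of 6 cases and downwards in none (median 0.97), through Ccn1 and Ccn2, which are SRF targets as well, and the adhesion protein gene Ajuba (2.19-fold). F3, the tissue factor gene, was seen with senecionine RNA alone (bound 2.49-fold).

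In the list of Arp2/3 subunits and nucleation genes, 4 were higher and 1 lower of 17 (median 0.61). Actr3, the actin-related subunit at the core of the complex, was 3.80-fold higher. Wipf1, Coro1a and Fmnl1, known mainly from leukocytes, were 3.01-fold, 2.75-fold and 2.63-fold higher, and Wasf1, known from brain, was 2.25-fold lower on its brightest probe, but inside 2-fold with normexp correction and with the median or dimmest of its probes.

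Of 12 capping, severing and monomer-binding genes, 6 passed 2-fold upwards (median 0.99), or 4 with median scaling or normexp correction, and none downwards. Twf1, a monomer-binding protein, was 3.48-fold higher, the capping subunit Capza1 3.12-fold, the pointed-end capper Tmod3 3.02-fold and the severing protein Gsn 2.50-fold. Tmod1, another pointed-end capper, was seen with senecionine RNA alone (bound 4.60-fold). Of 8 cross-linkers, 1 passed 2-fold upwards and 1 downwards (median 0.43). Lcp1, the plastin of leukocytes, was 5.49-fold higher, and Pls1, the plastin known from intestine, 2.23-fold lower, which normexp correction brought inside 2-fold. Ehd2, a membrane-bending ATPase, was seen with senecionine RNA alone (bound 1.12-fold). Of 14 adhesion genes and integrins, 5 passed 2-fold upwards and 1 downwards (median 0.35). With median scaling the counts were 4 and 3, and with normexp correction 3 and 0. Beside Tes, the leukocyte integrin chain Itgb7 was 5.22-fold, the adhesion adaptor Parvb 4.02-fold and the integrin activator Fermt2 2.46-fold higher, while Itgb5 was 2.23-fold lower. Itgb3, an integrin chain known from platelets, was seen with control RNA alone (bound 3.57-fold). Of 6 intermediate filament genes, 4 passed 2-fold upwards and 1 downwards (median 1.75, but 0.78 with flagged spots kept). The epithelial keratins Krt8 and Krt18 were 8.73-fold and 3.59-fold higher and Des, desmin, 5.43-fold, and Nefl, a neurofilament gene, was 7.71-fold lower. Nes, nestin, was seen with senecionine RNA alone (bound 3.02-fold).

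**Figure D5:**
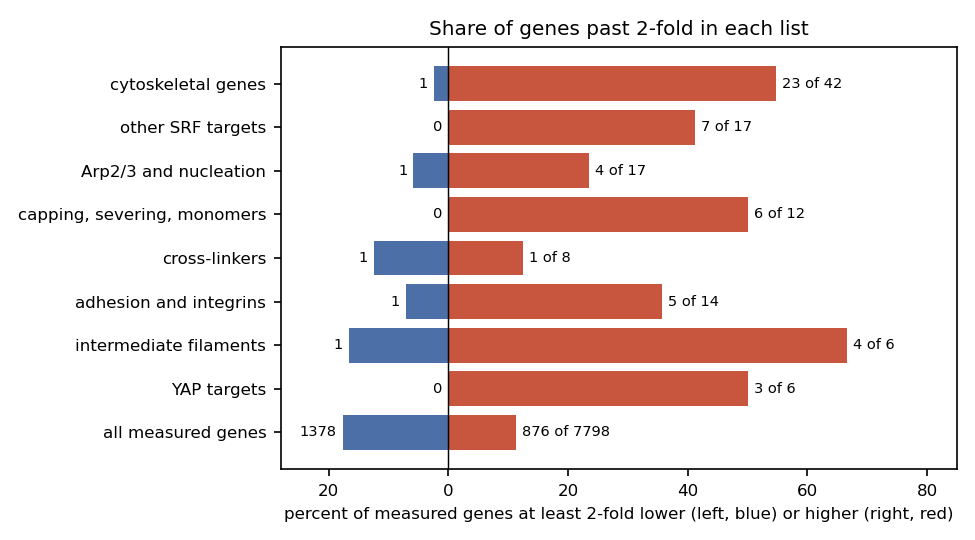
Percent of measured genes at least 2-fold higher (right) or lower (left) after senecionine in the cytoskeletal list, in 7 related lists and among all 7798 measured genes, with the counts printed. Some genes are in more than 1 related list. Bars to the right are longer than that of all measured genes in each list, though the cross-linkers, with 1 of 8, rest on a single gene.

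Some markers of other cells also differed between the arrays, and their part in the values above was not tested. Over all measured genes, 11.2% passed 2-fold upwards and 17.7% downwards. The marker lists here and below are short, and whether any of them departs from those shares was not tested. Of 9 neutrophil markers with a probe, 3 were measured and all 3 passed 2-fold upwards, 5 more were seen with senecionine RNA alone and Ngp on neither array. The summed relative signal of the measured ones was 3.64 for control and 76.5 for senecionine. Signals of different probes are not comparable, so such sums, here and below, mostly follow the brightest probes. Of 5 platelet markers, Pf4 and Gp1bb were measured, with a sum of 2.49 and 15.0, and Ppbp was above background on neither array. Of 10 macrophage markers 8 were measured, 2 higher and 3 lower, with Cd163 on neither array. Their sum was 157 and 127, of which the lower gene Clec4f made up 90.8 and 10.1. Of 11 stellate cell and fibroblast markers 9 were measured, 2 higher (Dcn and Des) and 1 lower (Lrat), with a sum of 244 and 159 and a median of -0.17 that turned positive with quantile normalization and cyclic loess (0.08 each), with other choices of probe and with detection on 1 array allowed. Of 7 smooth muscle markers 3 were measured, with a sum of 10.3 and 13.1, where Lmod1 and Kcnmb1 were above background on neither array and Pln was 9.82-fold higher. Bile duct markers were higher in 2 of 4 measured (sum 1.31 and 3.95), with Cftr on neither array. Lymphocyte markers were higher in 1 of 3 measured (sum 1.77 and 2.37).

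Hepatocyte markers were at least 2-fold lower in 4 of 5, with a sum of 2564 for control and 1331 for senecionine, and in 2 of 5 with quantile normalization, cyclic loess or normexp correction. Of 7 endothelial markers 5 were measured, 3 of them lower (sum 80.6 and 19.0), or 4 with the dimmest probe. On their brightest probes Tie1 (log2 ratio 0.81 ± 0.24) and Lyve1 (-0.55 ± 0.20) lay within 2-fold, with opposite signs. Cdh5 was seen with senecionine RNA alone and Pecam1 on neither array. Of 11 skeletal and heart muscle markers, Actn2 was 2.15-fold lower and Tnni2 2.31-fold higher (sum 2.17 and 3.98). Ckm, Actn3, Tnnt3 and Actc1 were seen with senecionine RNA alone, Myh6 and Myl1 with control RNA alone, and Acta1, Myh1 and Myh4 on neither array. Nervous system markers, a list added after values had been seen, were at least 2-fold lower in 6 of 7 measured and higher in none, with a sum of 68.7 for control and 5.12 for senecionine, and 3 more were seen with control RNA alone and 2 with senecionine RNA alone. Nefl, the lower gene of the intermediate filament list, is itself known from neurons.

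The authors' deposited table lists 41 probes of 30 of the genes. In the authors' deposited table, a total of 29 of these genes have a probe that is higher after senecionine and 2, Pdlim7 and Myh10, have one that is lower, with Myh10 in both counts. The table holds only probes that differ by at least 2-fold, so its counts cannot be read as shares of the list.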

How the data were processed

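Agilent Feature Extraction (version 10.7.3.1 in the submitters' processing notes) produced the deposited intensity values. Per the file headers, background was subtracted and trends were removed within each array, with no scaling between arrays. The outlier, saturation and well-above-background flags stand in the same deposited files. The authors also deposited a series table of log2 values, whose scaling and centring the sources used here do not give. Its columns have medians of 6.03 (control) and 6.10 (senecionine), and of its 7404 probes 7355 could be compared with the scanner values, all in the same direction. The series table comes from these same arrays and holds only probes at least 2-fold apart. The shared direction was therefore largely fixed in advance.

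For the main values, log2 of each processed signal was centred on the 75th percentile of its array. Flagged spots (522 control, 497 senecionine) were dropped, and no spot was saturated. Spots of a probe were averaged, and a repeated probe counted as above background unless most of its spots were not. Of 40516 probes, 17241 matched the RefSeq gene table (assembly GRCr8) by unversioned accession. The array was designed on build rn4, so only promoters have coordinates. Each gene was represented by its brightest probe that was well above background on both arrays. For a gene seen on 1 array, the fold was bounded against the lowest signal called above background on the other array, or the probe's own signal if higher. Having 1 array per group allowed no p-value and limits precision.

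The genes and lists were chosen with earlier results of these data known. Every listed cytoskeletal gene is named, and for each related list up to 4 genes with the largest ratios and the highest bound. Other scalings, normexp (offset 50, median spot signals), detection, probe, flag and threshold choices were tried. Protein sequences were not used here. The results of 1 related list and of 1 marker gene are not reported here. The counting was tested on simulated arrays. Software: limma 3.58.1 in R 4.3.3, and in Python 3.11.15 pandas 2.3.3, numpy 2.4.6 and matplotlib 3.10.9.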

Additional observations from a re-analysis of the deposited data

How the results depend on the processing

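No paired analysis was possible because there is 1 array per group and the labels carry no replicate numbers. Apart from the 4-fold threshold (8 higher), the count of cytoskeletal genes called higher ranged from 22 with the dimmest probe to 33 at 1.5-fold, and 1 gene was lower throughout, Myh10 in place of Pdlim7 with the dimmest probe. Of the 23 called higher, 19 stayed at least 2-fold higher under all 10 alternatives that give ratios. Actg2 was lost with normexp correction, Myh10 with the median or dimmest probe, and Actb and Vcl with the dimmest probe. Some of these alternatives could not remove a call. Detection on 1 array and flagged spots kept left the ratios of the measured cytoskeletal genes unchanged. Scaling over probes above background on both arrays raised each ratio, and the authors' deposited table holds only probes past 2-fold. A choice of probe can change only genes with more than 1 detected probe. Only Myh10 reversed, to -1.41 with its dimmest probe. The median over the genes was 1.70 in the authors' deposited table, which holds genes past 2-fold only. Among all genes, 2389 were higher and 1560 lower of 10586 when detection on 1 array sufficed, against 876 and 1378 of 7798. The genes so added entered only through the array where they passed background. The authors' deposited table gave 2031 and 1483 of its 3514 named genes. Of the 7798 measured genes, normexp correction gave 615 and 761, the 1.5-fold threshold 1641 and 2422, and the 4-fold threshold 213 and 360. The median of all genes moved from -0.14 to -0.26 with median scaling. Centring on all measured genes, chosen after seeing the data, called 27 cytoskeletal genes higher. With up to 1 letter allowed to differ, a CArG match was present in 11 genes, against 3 with a perfect box. The spread between rats is not measured, and dim probes have the widest spot errors.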
